A study of Oryza sativa with 6 samples.

Results

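Genes around the hormone abscisic acid were followed in young rice grains of the drw1 mutant and its wild type. They are LOC_Os07g05940, NCED3 (LOC_Os03g44380), NCED5 (LOC_Os12g42280) and NCED1 (LOC_Os02g47510) of the NCED family, ABA8ox1 (LOC_Os02g47470), ABA8ox2 (LOC_Os08g36860) and ABA8ox3 (LOC_Os09g28390), and VP1 (LOC_Os01g68370), which are 8 of the 39217 gene models in the count table, picked by locus identifier. The choice was partly made on the measurements themselves, since LOC_Os07g05940 was included for having one of the largest falls in drw1. The comparison of drw1 with ZH11 is therefore given for the members as a description, without a p-value, and nothing is supported with it. The names used here come from the gene list that defined the members. The table itself carries no names, and 0 of the 8 identifiers are in the RefSeq gene table (assembly ASM3414082v1). That table lists 5 of the names, NCED3, ABA8ox1, ABA8ox2, ABA8ox3 and VP1, and places each on the chromosome of its locus. NCED5 and NCED1 had no entry under their name. LOC_Os07g05940, the unnumbered NCED gene on chromosome 7, has no name of its own here. It was looked up as NCED alone, which cannot show whether the gene is listed.

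Abscisic acid is made from carotenoids. NCED enzymes, 9-cis-epoxycarotenoid dioxygenases of the plastid, cut the carotenoid backbone in the step usually regarded as rate-limiting. ABA8ox enzymes are cytochrome P450 proteins that hydroxylate abscisic acid and so start its breakdown, and the balance of the enzymes sets the hormone level. VP1, the counterpart of maize Viviparous1, is a B3-domain transcription factor through which abscisic acid acts on maturing seeds. In cereal grains the hormone is known for its part in filling, maturation and dormancy.

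The drw1 group held 3 libraries from grains of the mutant and the ZH11 group 3 libraries from grains of the wild type, a japonica cultivar. All grains were collected 3 days after pollination from plants grown in paddy fields at one station. The labels do not describe the drw1 allele, and do not say how many lines carry it or whether libraries of one genotype came from separate plants. P-values thus cover the spread among these libraries alone, and that spread may be technical. The mutated gene itself was not analysed here, so the labels were not checked against it, and the mutant columns carry another prefix than drw1. Their assignment rests on drw1 being the only other genotype of the series, and on the rule that defined the members, which calls these columns drw1.

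Library totals ran from 15582373 to 24147797 counts. Pairs of libraries of the same genotype had correlations of 0.991 to 0.994 in log2 expression over genes, and pairs across genotypes 0.885 to 0.891, a description only, since genes are not independent. Calls came from edgeR's quasi-likelihood test, and at an adjusted p under 0.05 they took in 70.1% of 23395 tested genes. In drw1 8356 of these were higher and 8039 lower. With TMM factors 51.0% of the called genes were higher, and with library totals alone 61.3%. That change moved the median log2 fold change of all genes to 0.19, against 0.03 with TMM.

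Most of the abscisic acid genes were lower in drw1, and they differed widely in how much. LOC_Os07g05940, NCED3 and ABA8ox3 were lower by an estimated 178-fold, 38.2-fold and 50.3-fold, ABA8ox1 by about 4-fold, VP1 and NCED5 by less, and ABA8ox2 and NCED1 overlapped between the genotypes. All 8 passed the filter on low counts, LOC_Os07g05940 only through its ZH11 libraries. In the test across all genes 6 members were past the threshold, all lower, where 34.4% of all tested genes were called lower. The drw1 libraries lay below all ZH11 libraries in the same 6 members, where 35.3% of tested genes do so. At least 2-fold lower were 5 members and 14.6% of tested genes. Among the 5 is VP1, whose interval reaches below 2-fold and whose log2 fold change was -0.86 with library totals alone. Called falls with an estimate of at least 32-fold made up 0.385% of tested genes, and 3 members were among them, although the interval of NCED3 reaches below that fold. Since the comparison had a part in the choice of the members, nothing is read from these shares. The libraries come from whole grains, in which fewer cells of a type and less RNA per cell cannot be told apart.

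**Figure D1:**
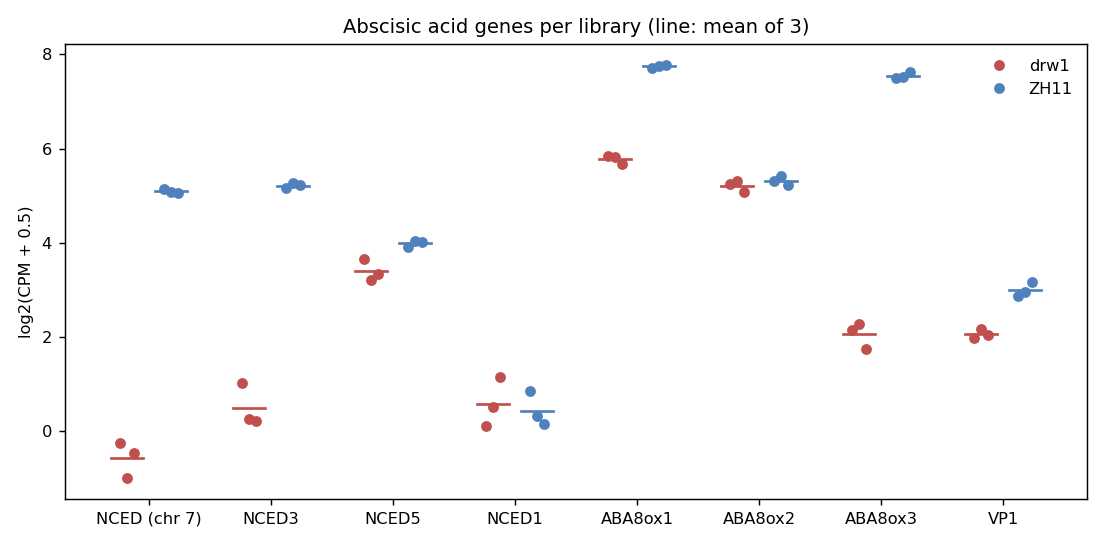
Level of each member in each library as log2(CPM + 0.5), with drw1 left of ZH11 and a line at the mean of 3 libraries. The genotypes are far apart for LOC_Os07g05940 (NCED, chr 7), NCED3 and ABA8ox3 and overlap for NCED1 and ABA8ox2.

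Among the synthesis genes, LOC_Os07g05940 had 6, 0 and 4 counts in the 3 drw1 libraries, against 645, 760 and 490 counts in the ZH11 libraries. In CPM, counts scaled to a common library size with the TMM factors, that was 0.344, 0 and 0.221 CPM in drw1 and 34.9, 33.2 and 32.8 CPM in ZH11. It was thus read steadily in every wild-type library and was close to absent from all mutant libraries. A library without a read allows up to 3 counts, which is 0.173 CPM in drw1 library 2. The means were 0.188 ± 0.174 CPM in drw1 and 33.7 ± 1.12 CPM in ZH11 (SD, n = 3 each). Over the genotypes, 10 counts in drw1 stood against 1895 in ZH11, 178-fold lower, with a 95% counting interval of 96.8 to 373 that covers counting error only. The fitted log2 fold change was -7.43 (SE 0.24), which ranked as number 13 among the falls of the 23395 genes. It was -8.14 without drw1 library 1, whose 6 counts are most of the reads in the mutant.

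NCED3, which in rice is studied for its response to drought, had 27, 12 and 12 counts in the drw1 libraries, against 648, 875 and 547 in the ZH11 libraries. The means were 0.966 ± 0.502 CPM in drw1 and 36.7 ± 1.57 CPM in ZH11 (SD, n = 3 each). Every mutant library thus lay far below every wild-type library, and the mutant libraries were still above the reads of LOC_Os07g05940. The gene was 38.2-fold lower in drw1, with a counting interval of 28.9 to 51.5, and its fitted log2 fold change was -5.24 (SE 0.18). That estimate rests on few reads in the mutant, and was -5.74 without drw1 library 1, which had 27 counts.

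NCED5 was lower by a much smaller step. It had 12.1, 8.81 and 9.66 CPM in the drw1 libraries, against 14.5, 15.9 and 15.8 CPM in the ZH11 libraries. The genotypes did not overlap, though the highest mutant library was close to the lowest wild-type library. The log2 fold change was -0.59 (SE 0.12, 95% interval -0.85 to -0.33), so that drw1 kept 66.3% of the ZH11 level.

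NCED1 was near the limit of detection in both genotypes. It had 10, 16 and 31 counts in the drw1 libraries, against 24, 17 and 9 in the ZH11 libraries. The libraries overlapped fully, and the spread within each genotype was as wide as any distance between them. The fitted log2 fold change was 0.27 with a 95% interval of -0.62 to 1.16, so that neither a moderate fall nor a rise of about 2-fold can be told from no change. It was -0.25 without drw1 library 3. Some naming schemes group this locus with the CCD4-type carotenoid cleavage dioxygenases instead of the NCED enzymes, and which reaction it carries out was not checked here. Sums over the NCED genes are therefore given with and without it.

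Among the breakdown genes, ABA8ox3 had the largest distance. It had 69, 75 and 52 counts in the drw1 libraries, against 3339, 4207 and 2932 in the ZH11 libraries. The means were 3.71 ± 0.751 CPM in drw1 and 187 ± 8.29 CPM in ZH11 (SD, n = 3 each). In the wild type the gene was one of the well-expressed genes of the grain, and in the mutant it was not. Per length, it stood above 50.4% of all models in drw1 and above 96.7% in ZH11. Those shares are over all 39217 models, of which 8418 had no count in any library. The gene's place among expressed genes alone was not computed. It was 50.3-fold lower in drw1, with a counting interval of 43.7 to 58.2, and its fitted log2 fold change was -5.66 (SE 0.11).

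ABA8ox1 had 56.6, 55.7 and 50.8 CPM in the drw1 libraries, against 209, 214 and 219.5 CPM in the ZH11 libraries. The libraries of each genotype lay close together and the genotypes were well apart. The log2 fold change was -1.98 (SE 0.07, 95% interval -2.12 to -1.84), so that drw1 held 25.4% of the ZH11 level.

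ABA8ox2 was the breakdown gene without a separation. It had 37.7, 39.1 and 33.2 CPM in the drw1 libraries, against 39.0, 42.0 and 37.1 CPM in the ZH11 libraries. The ranges overlapped. The log2 fold change was -0.10 with a 95% interval of -0.28 to 0.08, an interval far from the changes of ABA8ox1 and ABA8ox3. Its sign depended on scaling, with 0.05 under library totals alone and 0.01 under upper-quartile factors.

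VP1 had 60, 70 and 66 counts in the drw1 libraries, against 125, 167 and 127 in the ZH11 libraries. The means were 3.70 ± 0.301 CPM in drw1 and 7.53 ± 0.892 CPM in ZH11 (SD, n = 3 each), with no overlap. The log2 fold change was -1.02 (SE 0.16, 95% interval -1.36 to -0.67).

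**Figure D2:**
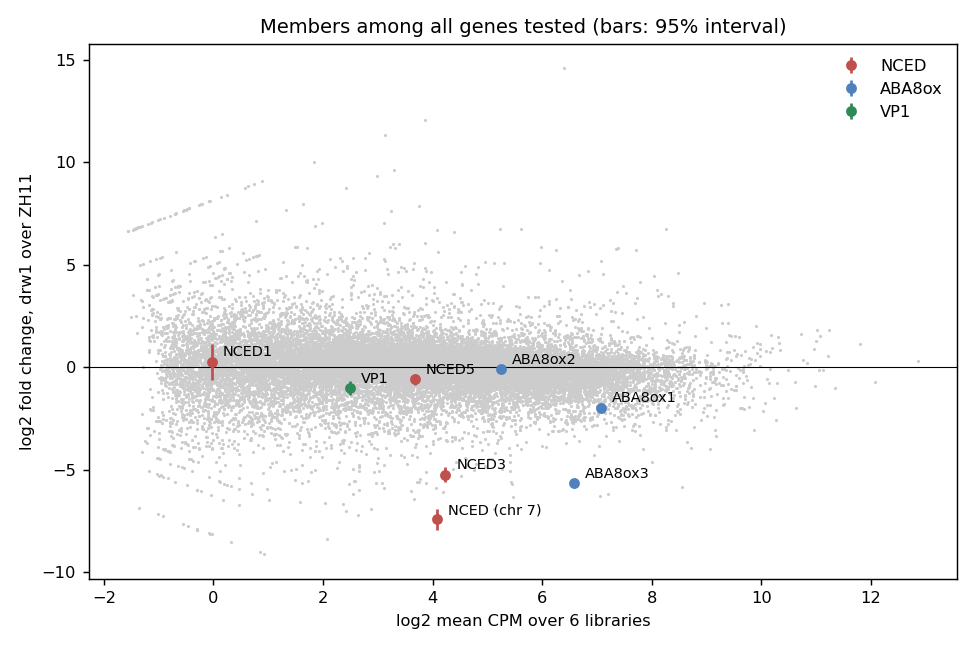
Log2 fold change, drw1 over ZH11, against log2 mean CPM over 6 libraries for all genes tested (grey) and the 8 members (coloured, bars are 95% intervals). LOC_Os07g05940 (-7.43), ABA8ox3 (-5.66) and NCED3 (-5.24) lie at the lower edge of the cloud, while ABA8ox2 (-0.10) and NCED1 (0.27) lie inside it.

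The make-up of both enzyme families differed between the genotypes. To compare genes with each other, counts were divided by the deposited gene length and scaled to the same total over all models in every library (TPM). The 4 NCED genes summed to 7.57 ± 1.34 TPM in drw1 and 50.5 ± 1.84 TPM in ZH11 (SD, n = 3 each), 6.67-fold lower in drw1. Of that sum, NCED5 was 82.5% ± 3.24 in drw1 and 17.6% ± 0.804 in ZH11. LOC_Os07g05940 gave 1.58% ± 1.41 of the sum in drw1 and 43.9% ± 1.63 in ZH11, and NCED3 gave 6.76% ± 2.45 in drw1 and 37.5% ± 1.29 in ZH11. In the wild type LOC_Os07g05940 and NCED3 thus made up most of the NCED transcripts, and in the mutant NCED5 did. NCED1 gave 9.14% ± 5.12 of the small sum in drw1 and 1.03% ± 0.435 in ZH11. Without NCED1, the other 3 genes summed to 6.91 ± 1.53 TPM in drw1 and 50.02 ± 2.03 TPM in ZH11, 7.24-fold lower in drw1, and NCED5 was 90.9% ± 3.23 of that sum in drw1 and 17.8% ± 0.735 in ZH11. Both sums and their shares hold LOC_Os07g05940, which was included for its fall, so they are a description. No sum was made without that gene.

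The 3 ABA8ox genes summed to 59.1 ± 5.45 TPM in drw1 and 288 ± 18.7 TPM in ZH11 (SD, n = 3 each), 4.87-fold lower in drw1. ABA8ox3 gave 5.02% ± 0.683 of that sum in drw1 and 49.5% ± 0.861 in ZH11. ABA8ox2 gave 39.8% ± 0.631 in drw1 and 8.32% ± 0.659 in ZH11, at nearly the same level of its own. ABA8ox1 gave 55.1% ± 1.23 in drw1 and 42.2% ± 0.206 in ZH11. Summed breakdown transcripts exceeded summed NCED transcripts in every library, by 6.90, 9.76 and 7.21 times in the drw1 libraries and by 5.55, 5.59 and 5.92 times in the ZH11 libraries. Without NCED1 these were 7.19, 10.7 and 8.41 times in drw1 and 5.64, 5.64 and 5.96 times in ZH11. These ratios compare transcripts and say nothing of enzyme or hormone amounts, which were not measured. The NCED sums hold LOC_Os07g05940, which was included for its fall, so nothing is read from the difference in ratios between genotypes. Ratios without that gene were not computed.

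**Figure D3:**
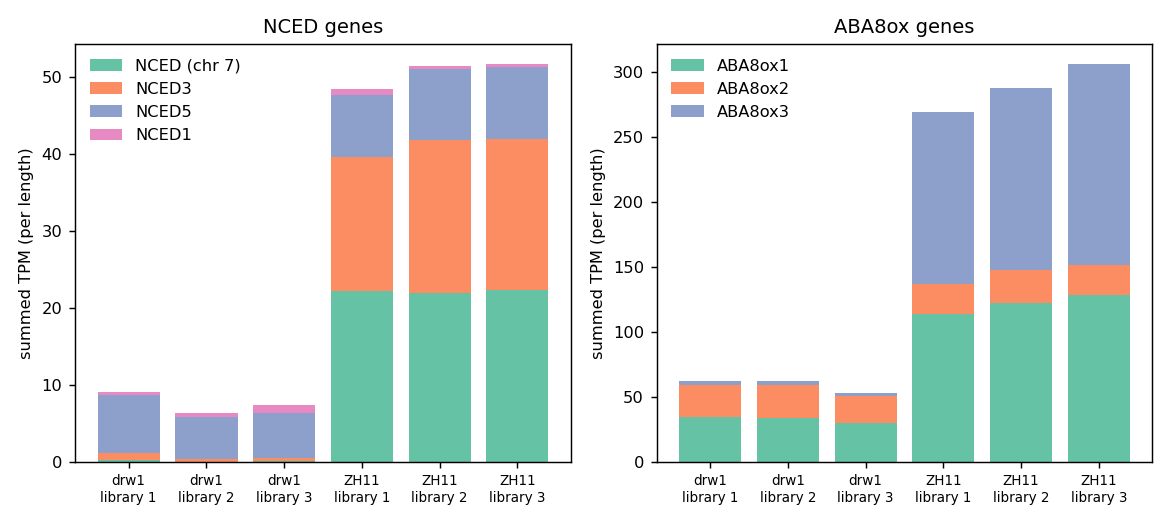
Summed TPM (counts per length, scaled to the same total per library) of the 4 NCED genes (left) and the 3 ABA8ox genes (right) in each library, stacked by gene, drw1 left of ZH11. Both stacks are lower in drw1, at a mean of 7.57 TPM against 50.5 TPM and of 59.1 TPM against 288 TPM, and the bands of LOC_Os07g05940 (NCED, chr 7), NCED3 and ABA8ox3 are thin there.

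The order of levels per length differed as well. In drw1 ABA8ox1 was highest, at 32.6 ± 2.50 TPM, followed by ABA8ox2 at 23.6 ± 2.38 and NCED5 at 6.25 ± 1.14 TPM (SD, n = 3 each). ABA8ox3 (2.99 ± 0.650 TPM) and VP1 (2.65 ± 0.217 TPM) overlapped with each other, as did NCED1 (0.663 ± 0.349 TPM) and NCED3 (0.530 ± 0.284 TPM), and LOC_Os07g05940 was lowest at 0.131 ± 0.123 TPM. In ZH11 ABA8ox3 was highest, at 142 ± 11.2 TPM, followed by ABA8ox1 at 121 ± 7.39 TPM. ABA8ox2 (23.9 ± 1.5 TPM), LOC_Os07g05940 (22.2 ± 0.192 TPM) and NCED3 (19.0 ± 1.31 TPM) came next, then NCED5 (8.91 ± 0.720 TPM), VP1 (5.11 ± 0.783 TPM) and NCED1 (0.517 ± 0.197 TPM). No neighbours in the wild-type order overlapped, although ABA8ox2 and LOC_Os07g05940 were close.

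The genes next to the most lowered members along the chromosomes moved in both directions. So did all tested genes, of which 35.7% were higher and 34.4% lower. Around LOC_Os07g05940, the 10 nearest tested loci by identifier, 5 on each side, had a median log2 fold change of 0.12, with 4 higher, 2 lower and 4 not past the threshold (edgeR's quasi-likelihood test, adjusted over all genes). They ran from -1.29 to 7.89. The highest of them, LOC_Os07g05840, named after its values were seen, had 546, 472 and 402 counts in the drw1 libraries, against 2 in each ZH11 library. Around NCED3 the 10 neighbours had a median of -0.19 and ran from -1.77 to 0.76. Around ABA8ox3 the median was -0.14 and the range -1.11 to 0.52, so that no neighbour of these genes came near their falls. ABA8ox1 and NCED1 lie close together on chromosome 2, with 2 models between their identifiers. The single one of these that was tested had a log2 fold change of -0.17 and was not past the threshold.

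Likeness to LOC_Os07g05940 was measured as the distance over 6 libraries in log2(CPM + 0.5), among 23394 other genes. The nearest locus was LOC_Os02g12310, with 7, 3 and 5 counts in the drw1 libraries, against 475, 546 and 378 in the ZH11 libraries. Its distance was 0.864. NCED3 ranked as number 12 by this measure, with a distance of 1.93, and ABA8ox3, whose levels are higher, as number 1552. The measure is dominated by the difference between the genotypes and is a description.

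The other genes of the pathway were read as 8 lists of loci. Symbols and loci had been paired from memory with earlier results of these data known, so membership is an assignment and single loci are not named, apart from one at each extreme. Of 68 loci, 67 were analysed and 55 were tested, of which 38 were lower in drw1, 9 were higher and 8 were not past the threshold. The median log2 fold change of the 55 was -0.80, against 0.03 for all genes tested, of which 34.4% were lower and 35.7% higher. Earlier results may have shaped the choice of loci, so that comparison is a description. With library totals alone 34 were lower and 13 higher. Members of some of these families are close copies, and reads shared between them could be divided or lost, which was not measured. The shares of all tested genes, 34.4% lower and 35.7% higher, also stand beside the counts of each list and of the markers below.

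Synthesis upstream and downstream of NCED was mostly lower. Among 11 loci for the enzymes that make the carotenoid precursors, 9 were lower, 1 was higher and 1 was not past the threshold, with a median log2 fold change of -0.71. They summed to 264 to 273 CPM in the drw1 libraries and 475 to 488 CPM in the ZH11 libraries. Of these loci 3 were lower by at least 2-fold, and the lowest had a log2 fold change of -3.10. With library totals alone 8 were lower and 2 higher. Of 6 loci for the xanthophyll cycle and the steps after NCED, 5 were tested and 4 were lower, none by 2-fold, with a median of -0.85. The other was not past the threshold, was called higher with library totals, with upper-quartile factors or without drw1 library 2, and is the 1 locus whose symbol RefSeq places on another chromosome. Of 4 loci for further carotenoid cleavage dioxygenases, 1 was tested and lower, at -0.26, a call lost with library totals or upper-quartile factors. A further NCED locus on that list had 0 counts over the drw1 libraries and 1 over the ZH11 libraries.

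Signalling loci moved in both directions. Receptors of the PYL family bind abscisic acid and then block the clade A PP2C phosphatases, which otherwise hold the SAPK kinases inactive. Of 12 receptor loci, 6 were tested, and 4 of these were higher in drw1, 1 was lower and 1 was not past the threshold, and their median log2 fold change was 0.60. All 12 together summed to 203 to 220.0 CPM in the drw1 libraries and 151 to 178 CPM in the ZH11 libraries. With library totals 5 were higher and 0 lower. There were 3 lower without drw1 library 1 or 2, and 2 lower without drw1 library 3 or ZH11 library 3. With the stricter filter on low counts 2 receptor loci were higher.

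All 9 phosphatase loci were past the threshold, 8 lower and 1 higher. Their median log2 fold change was -2.50, and 7 were lower by at least 2-fold. They summed to 265 to 269 CPM in the drw1 libraries and 1101 to 1313 CPM in the ZH11 libraries. The exception, LOC_Os05g49730, had the largest rise of the pathway loci. It had 234, 208 and 289 counts in the drw1 libraries, against 32, 26 and 18 in the ZH11 libraries, a log2 fold change of 3.34 (SE 0.19). The locus was picked for its rise, so no p-value is given.

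Of the 10 SAPK kinase loci 7 were past the threshold, near the 70.1% of all tested genes, so nothing is read from that number. The SAPK loci were split, with 5 lower, 2 higher and 3 not past the threshold. With library totals or upper-quartile factors 4 of them were lower and 3 higher. Their log2 fold changes ran from -1.16 to 0.82, and they summed to 554 to 566 CPM in the drw1 libraries and 629 to 682 CPM in the ZH11 libraries. Of 6 loci for bZIP transcription factors linked to abscisic acid, 4 were lower, 1 was higher and 1 was not past the threshold. Those log2 fold changes were wide, from -3.92 to 1.52. The summed level was 240.1 to 250.3 CPM in the drw1 libraries and 268 to 319.7 CPM in the ZH11 libraries. Most of the drw1 sum was the 1 locus called higher, at a mean of 159 CPM in drw1 and 55.3 CPM in ZH11. The sum therefore does not show the falls of the 4 lower loci.

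Loci for seed genes known to respond to abscisic acid or VP1, such as late embryogenesis abundant and oil body proteins, were mostly lower. Of 10 such loci 7 were tested, 6 were lower with estimates of at least 2-fold, and 1 was not past the threshold, and the median log2 fold change was -3.13. The 10 loci summed to 18.7 to 21.2 CPM in the drw1 libraries and 116 to 154 CPM in the ZH11 libraries. LOC_Os05g28210 had the largest fall of the pathway loci, with 1, 0 and 1 counts in the drw1 libraries, against 71, 77 and 37 in the ZH11 libraries. The ratio of ZH11 to drw1 was 87.1 with a counting interval of 23.8 to 724, and the fitted log2 fold change was -6.19 (SE 0.52). It passed the filter on low counts only through its ZH11 libraries and was picked for its fall, so no p-value is given.

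**Figure D4:**
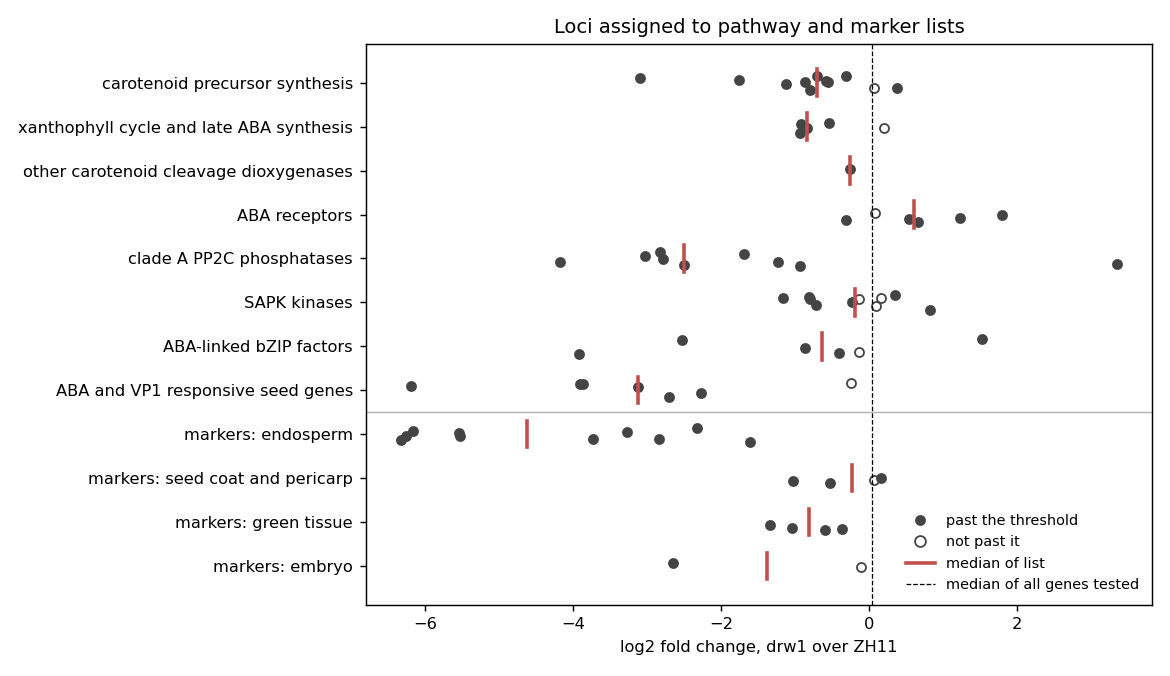
Log2 fold change, drw1 over ZH11, of each tested locus in the 8 pathway lists and 4 marker lists, filled where past an adjusted p of 0.05. Red lines are list medians, from 0.60 for receptors to -3.13 for responsive seed genes and -4.63 for endosperm markers, and the dashed line is the median of all genes tested (0.03).

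Markers of the grain's tissues also differed, and their part in the values of the abscisic acid genes was not tested. All 10 loci assigned to endosperm were lower in drw1 by an estimated 2-fold or more, and none was at 0 in all libraries of a genotype. Of these, 2 passed the filter on low counts only through their ZH11 libraries, and 1 of the 2 had 0 counts in drw1 library 2. They summed to 27.7 to 29.6 CPM in the drw1 libraries and 767 to 843 CPM in the ZH11 libraries, with a median log2 fold change of -4.63. Of 4 seed coat and pericarp loci, 2 were lower, 1 was higher and 1 was not past the threshold. They summed to 677 to 695 CPM in drw1 and 714 to 734 CPM in ZH11. Most of both sums was the locus not past the threshold, with means of 436 CPM in drw1 and 417 CPM in ZH11. Of the 2 lower loci 1 had an estimate of at least 2-fold, at a log2 fold change of -1.04. The higher call on this list depended on scaling, with 0 higher under DESeq2 size factors and 2 under library totals or upper-quartile factors. It was also lost without any 1 library other than ZH11 library 1. All 4 loci of green tissue were lower, with sums of 488 to 512 CPM in drw1 and 812 to 931 CPM in ZH11. Of 3 embryo loci 2 were tested, 1 was lower and 1 was not past the threshold, and the 3 summed to 7.73 to 10.2 CPM in drw1 and 15.2 to 17.0 CPM in ZH11. Reads from each of the 4 marker lists were thus found in both genotypes, which does not show how much of each tissue was present.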

How the data were processed

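The authors deposited whole-number read counts per gene model, not normalized, with a gene length in bases. The tools fastp, HISAT2, featureCounts and DESeq are listed, per the submitters' processing notes. The sources used here do not give build, annotation, strand setting or how multiply matching reads were counted, so near-identical copies and overlapping or antisense genes are uncertain.

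Genotypes were compared in all 6 libraries with edgeR 4.0.16 (quasi-likelihood test, two-sided, TMM factors, default filter on low counts, R 4.3.3). Benjamini-Hochberg adjustment ran over 23395 genes. Log2 fold changes are drw1 over ZH11, with approximate standard errors from the test statistic. Counting intervals are 95% exact binomial. The procedure was also run on simulated data in which 200 genes were changed. In the real data 70.1% of tested genes were called, so that run cannot check scaling or error rates under so wide a change. Alternatives used limma 3.58.1 and DESeq2 1.42.0, other scalings and filters, a replicate block and leaving out libraries.

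Members and lists were chosen with earlier results of these data known. Of 68 list symbols, RefSeq gave the locus's chromosome for 34, another for 1 and no entry for 33. Of the 21 marker loci, 11 matched and 10 had no entry. All members were named, as were the pathway locus with the largest rise and that with the largest fall, at a mean of at least 1 CPM, and the locus most like LOC_Os07g05940. No member rose past the threshold, so no locus was named as most like a risen one. Sequences of the members were not analysed here.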

Additional observations from a re-analysis of the deposited data

How the results depend on the processing

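Under 14 alternatives the count of members called was 6, all lower, each time. Log2 fold changes ran from -8.14 to -6.87 for LOC_Os07g05940, -5.74 to -5.03 for NCED3, -5.77 to -5.50 for ABA8ox3, -2.01 to -1.82 for ABA8ox1, -0.73 to -0.44 for NCED5 and -1.09 to -0.86 for VP1. The uncalled members changed sign: NCED1 ran from -0.25 to 0.64, and had no value under the stricter filter, and ABA8ox2 from -0.15 to 0.05. Called genes numbered 15243 to 16522 without 1 library, 15573 with DESeq2, 16436 with limma-voom and 13257 with the stricter filter, which tests fewer genes. Called pathway loci numbered 43 to 51. Without 1 library, SAPK loci lower numbered 4 (without drw1 library 2 or 3 or ZH11 library 2) to 6 (without ZH11 library 3), and without ZH11 library 3 there were 5 bZIP and 7 responsive seed loci lower. Without drw1 library 2 a further cleavage dioxygenase locus was called, as higher. Without a filter 3 receptors and 8 responsive seed loci were lower, and with the stricter filter 4 responsive seed loci and 8 endosperm markers. The seed coat and pericarp locus called higher was not called with DESeq2 or with the block. The alternatives for markers were chosen after seeing the data. With the replicate number as a block 15505 genes were called, against 16395 without it. Among them were 6 members and 47 pathway loci, and these 2 numbers were the same without the block. The labels link no number with a common plant or day. The deviations of libraries with the same number correlated at -0.17, 0.03 and -0.14. Only 1 library of 6 had its best match under its own number. Depth limits NCED1 in both genotypes, and LOC_Os07g05940 and NCED3 in drw1, where few reads set the size of the differences.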
